A study of Homo sapiens with 6 samples.

Results

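The genes described here carry iron into the cell, store it, release it and sense it. Their RNA was sequenced in 6 xenograft tumours of PATU, an established human line of pancreatic ductal adenocarcinoma (PDAC), injected under the skin of nude mice, which lack a thymus. The members were fixed by symbol as TFRC, SLC11A2, FTH1, FTL, NCOA4, SLC40A1, IREB2, ACO1, HFE and LCN2. Of these 10 symbols 9 had a row in the count table of 57773 genes, and all 9 passed the low-count filter that kept 21308 genes. No row carried the symbol NCOA4, the receptor that takes ferritin to the lysosome, so no count of it was analysed here. All 6 tumours came from cells with a doxycycline-inducible short hairpin RNA against ME3, a mitochondrial malic enzyme. In 2 tumours doxycycline was given to knock ME3 down (on dox), and 4 tumours were left without it (off dox). No tumour with a control hairpin is among these samples, so doxycycline, hairpin expression and lower ME3 cannot be told apart. The series title concerns deletion of ME2, a related malic enzyme. PATU's own ME2 status is not in the labels, and ME2 had 482 to 740 counts in every tumour. The sources used here give no age, duration or dose and do not say which tumours shared a mouse. The p-values therefore measure only the spread between tumours of a single line.

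Most cells take up iron bound to transferrin through the transferrin receptor, and the metal leaves the endosome through SLC11A2. Iron that is not used at once is caged inside ferritin, a hollow shell of heavy (FTH1) and light (FTL) chains, or exported by ferroportin (SLC40A1). Cells balance these routes largely after transcription. When iron is scarce, the iron regulatory proteins ACO1 and IREB2 bind hairpins called iron-responsive elements, which blocks translation of ferritin and ferroportin mRNA and stabilises the mRNA of the transferrin receptor. Counts of RNA measure the mRNA level alone, and neither translation nor iron itself.

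The total count was 24529707 and 25731887 in the on-dox tumours and 23855338 to 26885699 in the off-dox tumours. ME3 (ENSG00000151376), the target of the hairpin, had 33.3 and 28.5 CPM in on-dox tumours 1 and 2, against 37.9 to 44.2 CPM off dox. CPM is the count per 1000000 counts of a library, here with TMM-scaled library sizes. The ME3 difference did not pass the test over all genes (log2 fold change -0.41, SE 0.12, edgeR adjusted p = 0.148). Of 6 epithelial markers, the keratin genes KRT8 and KRT18 were at 368 CPM or more in every tumour. EPCAM was at 24.7 to 39.3 CPM, CDH1 at 9.69 to 16.4 CPM and MUC1 at 7.78 to 21.7 CPM. KRT19, a defining ductal keratin, had a count in only 1 tumour, at 0.0387 CPM. The 6 summed to 1127 and 1292 CPM on dox, against 1380 to 1619 CPM off dox, so the groups did not overlap. The part of this difference in the other results was not tested. On-dox tumour 1 stood apart in its mitochondrial mRNAs, which took 0.529% of counts, against 0.26% in on-dox tumour 2 and 0.222% to 0.276% off dox. Off-dox tumour 4 stood apart in 6 skeletal muscle markers, which summed to 483 CPM there and to 2.08 to 51.8 CPM in the other 5 tumours. Off-dox tumour 1 stood apart in 6 fibroblast markers, which summed to 799 CPM there and to 129.5 to 317 CPM in the other 5 tumours. The part of host mouse reads in these counts was not tested.

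On doxycycline none of the 9 iron genes passed the test. Of 9 tested, 4 had a log2 fold change above 0 and 5 below 0, with a median of -0.04 beside -0.003 over all genes. The test was edgeR's quasi-likelihood test with Benjamini-Hochberg adjustment over all genes and a threshold of 0.05. By that rule 1.06% of all genes were called (225 genes, with 0.465% of all genes higher on dox and 0.591% lower), and 0 of the 9 iron genes. At an unadjusted p under 0.05 the counts were 14.3% of all genes and 0 of the 9. With DESeq2 and limma voom 0 of the 9 were called as well, beside 3.4% and 0.864% of all genes. At an unadjusted p under 0.05 DESeq2 had 1 of the 9, FTH1, beside 12.8% of all genes. Limma voom had 0 of the 9 at that mark, beside 13.8% of all genes. On-dox and off-dox CPM were fully apart for 2 of the 9, SLC11A2 and HFE, which is 22.2%, near the 23% of all genes for which this held. Leaving out on-dox tumour 1 gave 72 called genes in all, and leaving out on-dox tumour 2 gave 562. Dropping off-dox tumours 1 to 4 in turn gave 96, 80, 83 and 133. The iron genes had 0 in each of these fits.

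**Figure D1:**
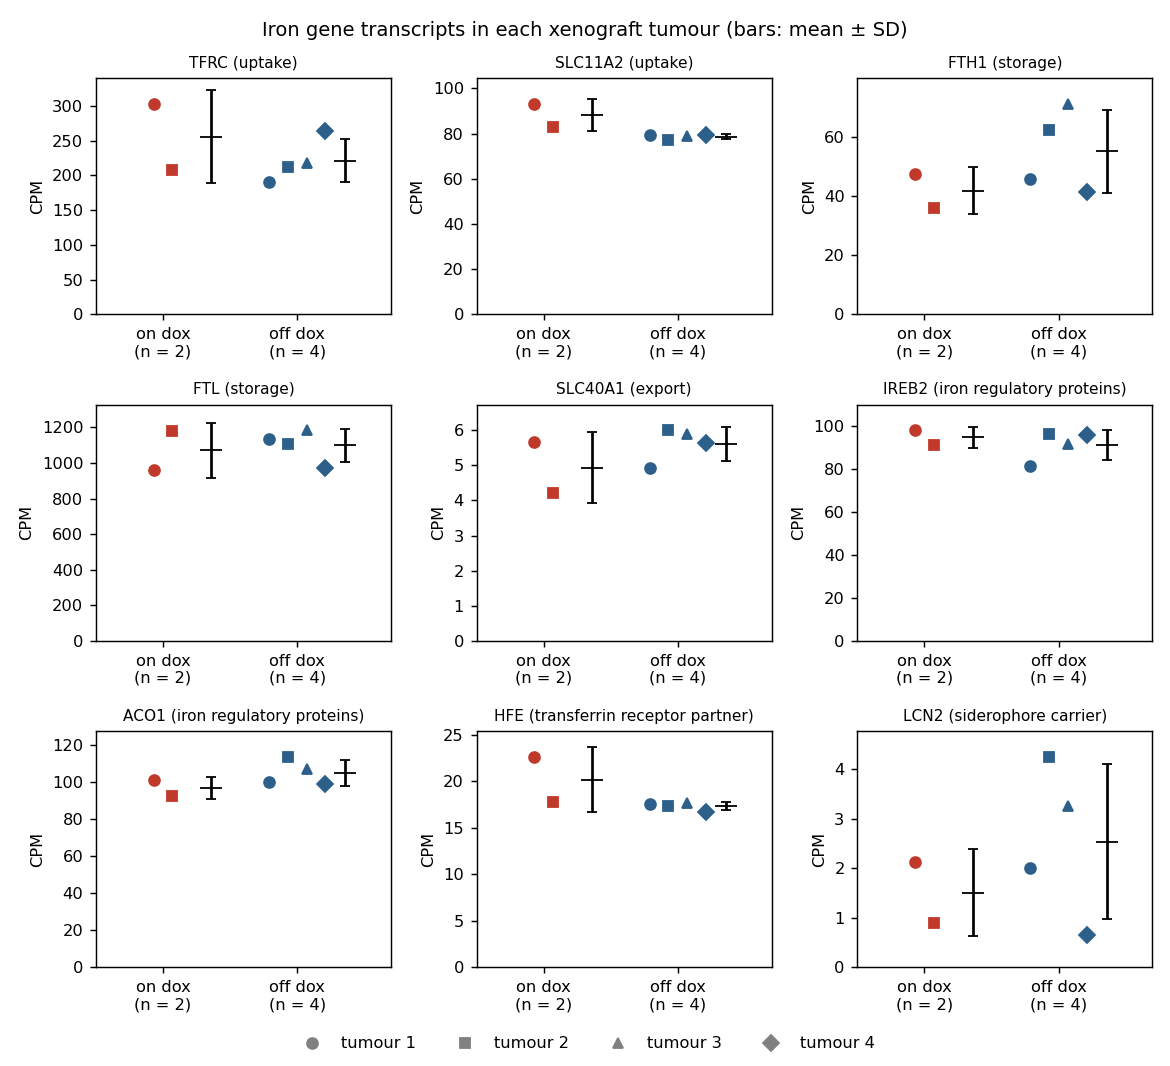
CPM of the 9 iron genes (y axis, from 0) in each tumour, with on-dox tumours in red on the left and off-dox tumours in blue on the right. Each symbol is 1 tumour, and the black bars give the mean and SD. TFRC differs between the on-dox tumours, at 303 and 208 CPM, and so does LCN2, at 2.13 and 0.891 CPM, while SLC11A2 is nearly level off dox, between 77.3 and 79.4 CPM.

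The genes differed widely in level. Per kilobase of annotated exon, FTL was the most abundant, at 1219 CPM per kb on dox and 1251 ± 104 CPM per kb off dox (mean, with SD over n = 4). TFRC and FTH1 followed at 28.0 ± 3.92 and 27.2 ± 6.91 CPM per kb off dox, and did not differ from each other beyond their spread. The FTH1 level is uncertain. Its processed copies (pseudogenes), counted apart, summed to 52.8% to 89.8% of its own count, against 0.567% to 0.892% for FTL. ACO1 was at 13.9 ± 0.915 CPM per kb, above IREB2 at 8.42 ± 0.641 and SLC11A2 at 7.76 ± 0.0974 CPM per kb, whose values over the off-dox tumours overlapped. The lowest levels per length were those of HFE, LCN2 and SLC40A1, at 3.055, 1.59 and 1.30 CPM per kb off dox, of which LCN2 and SLC40A1 did not differ beyond their spread. These lengths join the exons of every annotated transcript of a gene, which lowers the value of genes with many long isoforms.

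TFRC (ENSG00000072274) encodes the transferrin receptor, the main door for iron in dividing cells. It was at 303 and 208 CPM in on-dox tumours 1 and 2, against 190.1, 213, 218 and 264 CPM in off-dox tumours 1 to 4. On-dox tumour 1 was the highest of all, on-dox tumour 2 lay inside the off-dox range, and off-dox tumour 4 came second. On the log2 scale the difference was 0.21 (SE 0.16, 95% interval -0.14 to 0.56, edgeR adjusted p = 0.606), so the interval runs from 0.905-fold to 1.48-fold. Without on-dox tumour 1, the tumour high in mitochondrial mRNA, the value turned to -0.09 (adjusted p = 0.866). Leaving out on-dox tumour 2 instead gave 0.45. The part of the mitochondrial share in this difference was not tested.

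The TFRC mRNA carries its iron-responsive elements in the 3' UTR, where bound regulatory proteins protect it from decay. A search for the canonical form found 4 of them in the GENCODE v29 transcripts (human build GRCh38), each in 3 of the 4 protein-coding transcripts searched. They are shown because they are the link between cell iron and TFRC mRNA level. The form searched was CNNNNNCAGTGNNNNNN on the transcript strand, with the 5 bases before the loop pairing with the last 5, G with T allowed. Capitals mark the 6 loop bases, and the first base of each run is the bulged C. The elements start at bases 3394, 3798, 3863 and 3910 of the longest of these transcripts.
TFRC element 1: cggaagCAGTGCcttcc
TFRC element 2: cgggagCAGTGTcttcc
TFRC element 3: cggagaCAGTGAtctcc
TFRC element 4: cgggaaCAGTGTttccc
Of 19684 protein-coding genes searched, 0.671% held a match in a 3' UTR and 0.183% in a 5' UTR. Among the 10 listed genes TFRC was the 1 with a 3' UTR match to this strict form. An element with an extra bulge, another loop or a mismatched stem would be missed. A gene without a match, such as SLC11A2, may therefore still carry an element. A match describes the letters and does not show that a protein was bound.

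SLC11A2 (ENSG00000110911), also called DMT1, moves ferrous iron across the membrane of the endosome and of the gut cell. It had 93.25 and 83.2 CPM in on-dox tumours 1 and 2, against 79.4, 77.3, 78.9 and 79.3 CPM in off-dox tumours 1 to 4. Both on-dox tumours lay above all 4 off-dox tumours, whose own spread was, relative to the mean, the smallest of the 9 genes (78.7 ± 0.988 CPM). The difference did not pass the test (log2 fold change 0.16, SE 0.09, 95% interval -0.03 to 0.36, edgeR adjusted p = 0.437), and was 0.08 without on-dox tumour 1. An exact two-sided permutation test over all 15 ways to choose 2 of 6 tumours returned p = 0.0667, which no result of this design can go below.

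FTH1 (ENSG00000167996), the ferritin chain that oxidises iron for storage, had the smallest p of the members. It was at 47.5 and 36.2 CPM in on-dox tumours 1 and 2, against 45.9, 62.4, 71.3 and 41.3 CPM in off-dox tumours 1 to 4. On-dox tumour 2 was the lowest of all, but on-dox tumour 1 lay above 2 of the off-dox tumours, and the off-dox tumours themselves split into a higher and a lower pair. The log2 fold change was -0.40 (SE 0.21, 95% interval -0.86 to 0.06, edgeR adjusted p = 0.427; exact permutation p = 0.267). Leaving out on-dox tumour 1 gave -0.61, leaving out on-dox tumour 2 gave -0.22 and leaving out off-dox tumour 3 gave -0.25.

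FTH1 has many processed copies in the genome, so its count is uncertain. Of 25 FTH1 pseudogenes with a row, 17 had counts. Their sum was 32.3 and 30.2 CPM in on-dox tumours 1 and 2, against 24.2, 49.99, 60.4 and 37.1 CPM in off-dox tumours 1 to 4. That is 52.8% to 89.8% of the FTH1 count in the same tumour. FTH1P2 alone had 354 and 300 counts on dox, against 215, 503, 585 and 353 counts off dox. As with FTH1 itself, off-dox tumours 2 and 3 were the highest. Whether these reads came from the parent gene was not tested.

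FTL (ENSG00000087086), the chain that helps build the iron core, was level between the groups. It had 960.0 and 1181 CPM in on-dox tumours 1 and 2, against 1132, 1107, 1184 and 971 CPM in off-dox tumours 1 to 4. The lowest values were in on-dox tumour 1 and off-dox tumour 4, the same tumours in which TFRC was highest. Its log2 fold change was -0.04 (SE 0.13, 95% interval -0.32 to 0.25, edgeR adjusted p = 0.93), and 0.11 without on-dox tumour 1. The interval runs from 0.801-fold to 1.19-fold. The 16 FTL pseudogenes with a row summed to 0.567% to 0.892% of the FTL count.

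Both ferritin mRNAs and that of ferroportin carry their element in the 5' UTR, where a bound regulatory protein keeps the ribosome from starting. These 3 were the members with a 5' UTR match to the form given for TFRC, and they are shown with the loop in capitals.
FTH1: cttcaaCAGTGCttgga
FTL: cttcaaCAGTGTttgga
SLC40A1: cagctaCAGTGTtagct
The 2 ferritin elements share 16 of 17 bases and differ by C12T, counted from the 5' end with the FTH1 base first, which is the last base of the loop. They start at base 65 of the FTH1 transcript and base 41 of the FTL transcript. For SLC40A1 the element was in 1 of 5 transcripts searched, starting at base 205. The FTH1 element was in 7 of 8 transcripts and the FTL element in the 1 searched.

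Ratios within a tumour do not depend on how libraries are scaled. The log2 ratio of TFRC to FTH1 counts was 2.67 and 2.52 in on-dox tumours 1 and 2, against 2.05, 1.77, 1.61 and 2.68 in off-dox tumours 1 to 4. Off-dox tumour 4 thus matched the on-dox tumours, and the other 3 off-dox tumours lay below them. The means were 2.60 ± 0.105 on dox and 2.03 ± 0.468 off dox (SD, n = 2 and n = 4), a difference of 0.57 with an exact permutation p = 0.333 over the 15 splits. The difference was 0.58 (p = 0.2, exact permutation) with pseudogene counts added to FTH1, and 0.79 without off-dox tumour 4. The log2 ratio of FTH1 to FTL was -4.34 and -5.03 on dox, against -4.625, -4.15, -4.05 and -4.555 off dox (difference -0.34, exact permutation p = 0.333). Leaving out on-dox tumour 2 gave a difference of 0.01, and leaving out on-dox tumour 1 gave -0.68.

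**Figure D2:**
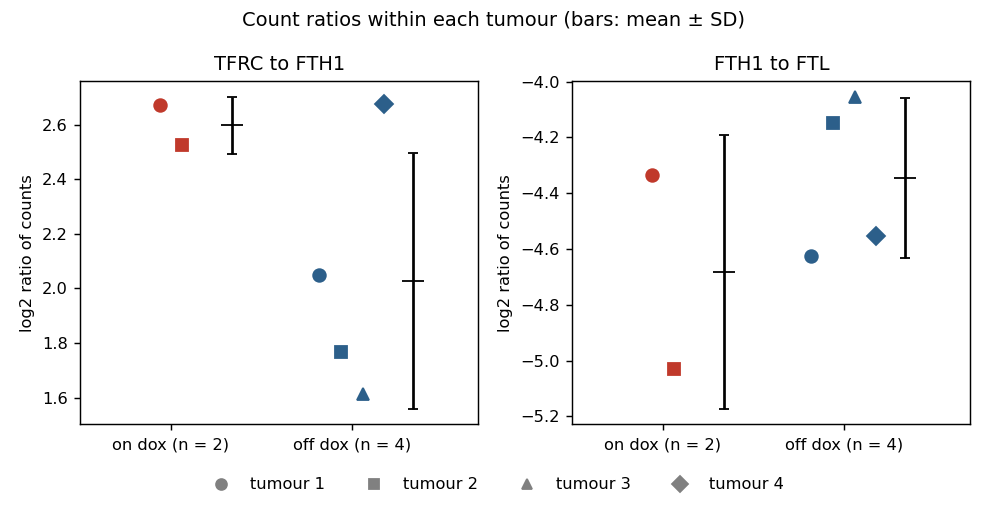
Log2 ratio of counts (y axis, not from 0) of TFRC to FTH1 (left) and of FTH1 to FTL (right) in each tumour, on dox left of off dox. Each symbol is 1 tumour, and the black bars give the mean and SD. For TFRC to FTH1, off-dox tumour 4 at 2.68 sits beside the on-dox tumours at 2.67 and 2.52.

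SLC40A1 (ENSG00000138449) encodes ferroportin, the one known iron exporter of vertebrate cells. Its level was low, with 104 to 148 counts per tumour. It was at 5.66 and 4.21 CPM in on-dox tumours 1 and 2, against 4.92, 6.001, 5.89 and 5.65 CPM in off-dox tumours 1 to 4. On-dox tumour 2 was the lowest and on-dox tumour 1 lay inside the off-dox range. The estimate was a log2 fold change of -0.185 (SE 0.215, 95% interval -0.66 to 0.29, edgeR adjusted p = 0.757) and turned to 0.01 without on-dox tumour 2. Macrophages, which are rich in ferroportin, had 10 markers listed and 9 with a row. These summed to 29.6 and 33.8 CPM on dox, against 18.0 to 37.1 CPM off dox, with most of the sum in CSF1R (10.99 to 14.15 CPM over the 6 tumours) and PTPRC (2.73 to 15.5 CPM). TYROBP was at 0 in every tumour and CD68 in 5 of 6, and CD163 and FCER1G were under 0.5 CPM. Macrophages of the host are mouse cells, whereas these are counts of human genes, so the sums do not directly measure host macrophages. The part of macrophages in the SLC40A1 level was not tested. In bulk RNA, fewer cells of a type and less RNA per cell cannot be told apart.

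Neither iron regulatory protein gene passed the test. IREB2 (ENSG00000136381), which is degraded when iron is plentiful, was at 97.9 and 91.2 CPM in on-dox tumours 1 and 2, against 81.1, 95.9, 91.3 and 95.7 CPM in off-dox tumours 1 to 4. ACO1 (ENSG00000122729), which turns from an RNA-binding protein into cytosolic aconitase when it holds an iron-sulphur cluster, was at 101 and 92.7 CPM on dox, against 99.9, 114, 107 and 98.9 CPM off dox. The groups overlapped for both genes. The log2 fold change was 0.05 for IREB2 (95% interval -0.16 to 0.27, edgeR adjusted p = 0.855) and -0.11 for ACO1 (95% interval -0.33 to 0.10, edgeR adjusted p = 0.649). Of the 9 genes, only SLC11A2 had an interval as narrow as these.

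HFE (ENSG00000010704), a partner of the transferrin receptor whose mutation causes hereditary haemochromatosis, was at 22.7 and 17.74 CPM in on-dox tumours 1 and 2, against 17.58, 17.31, 17.70 and 16.75 CPM in off-dox tumours 1 to 4. The groups did not overlap, but on-dox tumour 2 lay hardly above off-dox tumour 3. HFE had a log2 fold change of 0.22 (SE 0.13, 95% interval -0.07 to 0.51, edgeR adjusted p = 0.489; exact permutation p = 0.0667). With on-dox tumour 1 left out it was 0.04, and with on-dox tumour 2 left out 0.38. Like IREB2, at 97.9 CPM there, TFRC, SLC11A2 and HFE were each highest in on-dox tumour 1. When on-dox tumour 2 was left out, these 3 had an unadjusted p under 0.05, as did 20.4% of all genes in that fit, and the smallest adjusted p of a member was 0.128, for TFRC. The members past that mark were FTH1 when on-dox tumour 1 was left out (12.3% of all genes) and FTH1 and LCN2 when off-dox tumour 4 was (13.5%), with none after adjustment. Leaving out off-dox tumours 1, 2 or 3 gave 0 of the 9 at that mark, beside 12.2%, 11.4% and 11.9% of all genes.

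LCN2 (ENSG00000148346), lipocalin 2, binds iron-loaded siderophores and is secreted by neutrophils and inflamed epithelium. It varied most. It had 55 and 22 counts in on-dox tumours 1 and 2, or 2.13 and 0.891 CPM, against 52, 105, 79 and 17 counts, or 2.00, 4.26, 3.25 and 0.649 CPM, in off-dox tumours 1 to 4. Off-dox tumour 4 was the lowest of all and off-dox tumour 2 the highest, so the off-dox spread covered both on-dox values. With so few counts the log2 fold change of -0.74 (SE 0.62, edgeR adjusted p = 0.642) had a wide 95% interval, from 0.233-fold to 1.54-fold. The value depended on which on-dox tumour was kept, at -0.25 with tumour 1 and -1.50 with tumour 2. The 8 neutrophil markers summed to 1.51 and 1.05 CPM on dox, against 1.116 to 2.84 CPM off dox, with MPO and FCGR3B at 0 in every tumour. These are counts of human genes and do not directly measure the neutrophils of the mouse host.

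**Figure D3:**
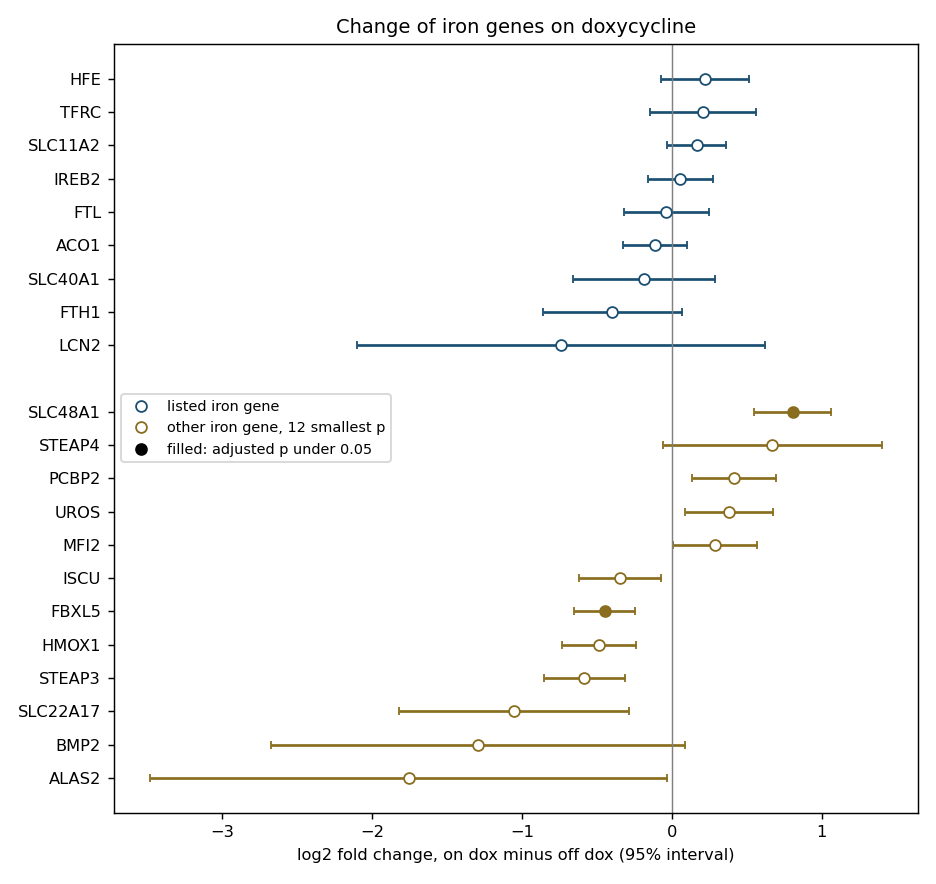
Log2 fold change on dox minus off dox (x axis) with its 95% interval for the 9 iron genes (blue, above) and for the 12 other iron genes with the smallest p (brown, below). Filled points passed an adjusted p of 0.05. The interval of each of the 9 genes includes 0, and the filled points are SLC48A1 at 0.80 and FBXL5 at -0.45.

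A wider list of 88 genes of iron reduction, transport, sensing, iron-sulphur cluster assembly and haem metabolism was set beside them. Of 78 that were tested 1 rose and 1 fell, 2.56% beside the 1.06% of all genes, and 76 did not pass. Their median log2 fold change was -0.04, beside -0.003 over all genes. This median rested on on-dox tumour 1: it turned to 0.041 without that tumour and was -0.154 without on-dox tumour 2. The medians over all genes in those fits were -0.031 and -0.014. Of the 78 genes 50 lay below the off-dox mean CPM in on-dox tumour 1, and 33 in on-dox tumour 2. The same share over all genes was not counted, so these counts do not show a lean particular to iron genes. For 17 of the 78 the groups did not overlap, 21.8% beside 23% of all genes. The 10 genes not tested included HAMP, which encodes the iron hormone hepcidin, with 3 and 0 counts on dox and 0 to 1 counts off dox, and FTMT, the mitochondrial ferritin, with 2 counts in off-dox tumour 3 and 0 elsewhere. HEPH, a ferroxidase of the gut, had 8 counts in off-dox tumour 3, 1 in off-dox tumour 1 and 0 elsewhere.

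**Figure D4:**
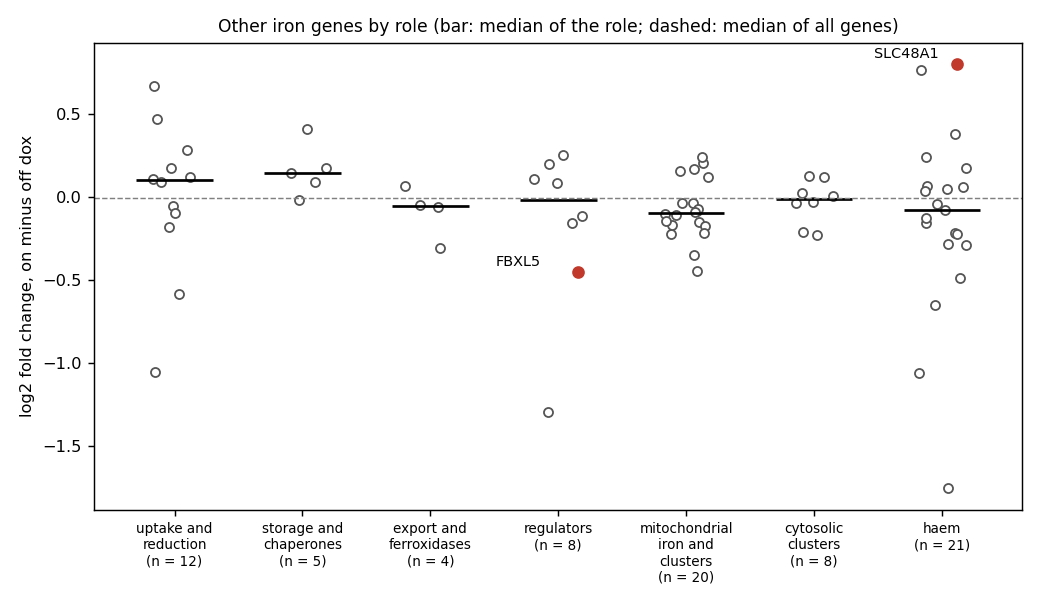
Log2 fold change on dox minus off dox (y axis) of the 78 tested genes of the wider iron list, by role (x axis, number tested in brackets). Each point is 1 gene, black bars are the median of a role, the dashed line is the median of all genes, and the red points passed an adjusted p of 0.05. The medians of the roles lie between -0.10 and 0.15.

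SLC48A1 (ENSG00000211584), a transporter that carries haem out of the lysosome, rose on dox. It was at 31.2 and 35.4 CPM in on-dox tumours 1 and 2, against 17.8, 19.3, 18.7 and 20.45 CPM in off-dox tumours 1 to 4. The on-dox tumours lay well above every off-dox tumour, a 1.75-fold difference (log2 fold change 0.80, SE 0.12, edgeR adjusted p = 0.0136). The call held whichever tumour was left out (log2 fold change 0.71 to 0.89, adjusted p 0.0276 to 0.0464).

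FBXL5 (ENSG00000118564), the iron-sensing part of the ubiquitin ligase that marks IREB2 for degradation, fell on dox. It was at 178 and 191 CPM in on-dox tumours 1 and 2, against 264, 247, 252 and 246 CPM in off-dox tumours 1 to 4. The groups did not overlap, and the fold was 0.732 (log2 fold change -0.45, SE 0.09, edgeR adjusted p = 0.0478). The call was narrow. It held without on-dox tumour 2 (adjusted p = 0.0359) and was lost without on-dox tumour 1 (0.144) or off-dox tumours 1 to 4 (0.105, 0.129, 0.129 and 0.0869), with log2 fold changes from -0.51 to -0.40. It also missed the threshold with DESeq2's size factors in the edgeR fit (adjusted p = 0.0513).

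The next smallest p-values belonged to STEAP3 and HMOX1, neither past the threshold. STEAP3, the endosomal reductase that readies transferrin iron for SLC11A2, was at 33.1 and 31.7 CPM in on-dox tumours 1 and 2, against 45.2 to 56.7 CPM off dox (log2 fold change -0.59, SE 0.12, edgeR adjusted p = 0.0532). HMOX1, the haem oxygenase that frees iron from haem, was at 51.25 and 46.5 CPM on dox, against 62.7 to 76.85 CPM off dox (log2 fold change -0.49, SE 0.11, edgeR adjusted p = 0.0705). In both genes the on-dox tumours lay below every off-dox tumour. DESeq2, which called 3.4% of all genes, called both (adjusted p = 0.00215 for STEAP3 and 0.0107 for HMOX1), and limma voom called neither (0.0638 and 0.0874). With each tumour left out in turn neither was called, at an adjusted p of 0.071 to 0.142 for STEAP3 and 0.0869 to 0.179 for HMOX1.

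**Figure D5:**
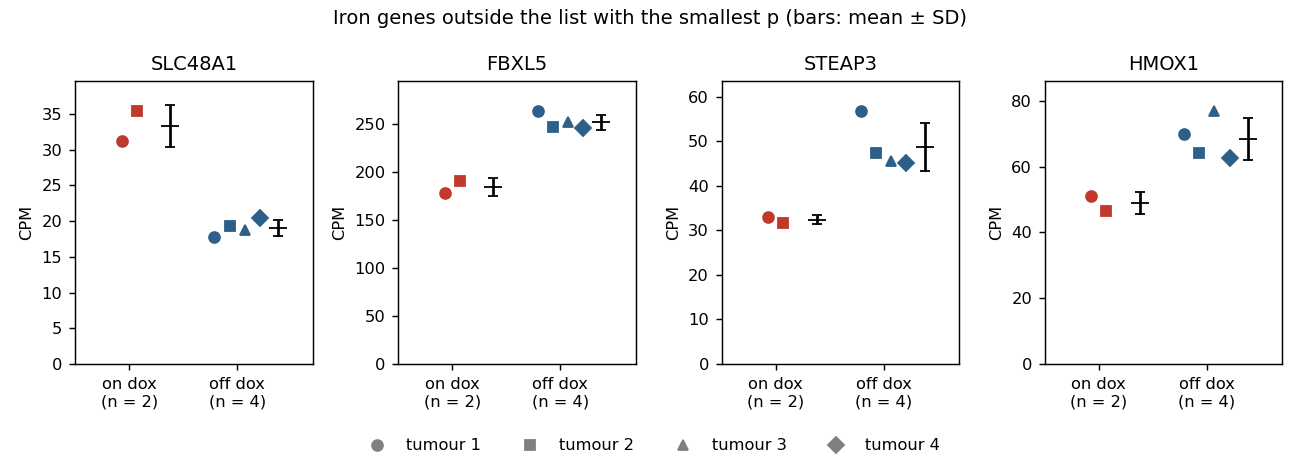
CPM (y axis, from 0) of the 4 genes of the wider list with the smallest p, in each tumour, on dox left of off dox. Each symbol is 1 tumour, and the black bars give the mean and SD. In each panel the on-dox tumours lie apart from the off-dox tumours, above them for SLC48A1 and below them for FBXL5, STEAP3 and HMOX1.

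The other 8 genes that the naming rule takes from the wider list did not pass either. Uptake genes among them were SLC22A17, a reported LCN2 receptor (log2 fold change -1.05, edgeR adjusted p = 0.194), MFI2, the transferrin homologue melanotransferrin (0.29, adjusted p = 0.338), and STEAP4, a metalloreductase (0.67, adjusted p = 0.394). SLC22A17 was at 1.24 and 1.22 CPM on dox, against 1.86 to 3.50 CPM off dox. The RNA-binding protein and iron chaperone gene PCBP2 was at 221 and 179.5 CPM on dox, against 130 to 166 CPM off dox (0.41, adjusted p = 0.166), and its value was 0.26 with on-dox tumour 1 left out and 0.55 with on-dox tumour 2 left out. ISCU, the scaffold on which iron-sulphur clusters are built, was at 33.4 and 43.8 CPM on dox, against 46.7 to 52.2 CPM off dox (-0.35, adjusted p = 0.233). ISCU was at -0.163 (adjusted p = 0.604) with on-dox tumour 1 left out. With on-dox tumour 2 left out, a fit that called 2.44% of all genes, it was called at -0.56 (adjusted p = 0.0434). UROS, an enzyme of haem synthesis, was at 43.6 and 61.1 CPM on dox, against 38.4 to 42.5 CPM off dox (0.38, adjusted p = 0.219), and moved to 0.607 with on-dox tumour 1 left out and to 0.113 with on-dox tumour 2 left out. ALAS2, the erythroid first enzyme of haem synthesis, had 2 and 3 counts on dox, against 4, 7, 12 and 12 counts off dox (-1.76, adjusted p = 0.34). It passed the low-count filter only through off-dox tumours 3 and 4, and was not tested when either was left out. The ALAS2 value is therefore no evidence of a fall. BMP2, a growth factor that can induce hepcidin, had 12 to 104 counts (-1.30, adjusted p = 0.384). BMP2 ran from -2.21 with on-dox tumour 2 left out to -0.734 with on-dox tumour 1 left out, and was -0.81 with off-dox tumour 1 left out. Of the 88 listed genes, ALAS2 was the 1 with a 5' UTR match to the strict form searched, beside 0.183% of all protein-coding genes. TF, the gene of transferrin, was the 1 with a 3' UTR match, beside 0.671%. The TF match was in 1 of 3 transcripts, starting at base 16641, and whether it is a working element was not tested. Elements of another form in the other genes would be missed.

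By role, of 12 tested genes of uptake and reduction 7 lay above 0 and 5 below, with a median of 0.10. Of 20 genes of mitochondrial iron and clusters 5 lay above 0 and 15 below, with a median of -0.10. By edgeR 0 of the 20 were called and 1 had an unadjusted p under 0.05, beside 1.06% and 14.3% of all genes. On-dox tumour 1, the tumour high in mitochondrial mRNA, lay below the off-dox mean in 16 of these 20 genes, and on-dox tumour 2 in 9, so the lean was not shared by both. The part of the mitochondrial share in the lean was not tested, and the same counts over all genes were not made. Of 21 haem genes 9 lay above 0 and 12 below, with a median of -0.08. The 8 genes of cytosolic cluster assembly split 4 and 4, with a median of -0.01 (below the off-dox mean in 7 of 8 genes in on-dox tumour 1, and in 1 of 8 in on-dox tumour 2), and so did the 8 regulators, with a median of -0.015 and FBXL5 called. Of 5 storage and chaperone genes 4 lay above 0 (median 0.147), and of 4 export and ferroxidase genes 1 did (median -0.054).

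The genes most like FTH1, the member with the smallest p, were sought among 10252 others whose log2 CPM averaged 3 or more. Over the 6 tumours the highest Pearson correlations of log2 of CPM plus 1 were those of DDX26B (0.997), HNRNPM (0.982), DNAJC7 (0.980), MTM1 (0.978) and EPC2 (0.966). HNRNPM, a splicing factor gene, was at 102.5 and 91.3 CPM on dox, against 96.3, 111, 115 and 96.2 CPM off dox. It was highest in off-dox tumours 2 and 3, as was FTH1. With so many genes ranked over 6 tumours, values this high describe the ranking and are no test.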

How the data were processed

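Per tumour and gene, the authors deposited raw counts, whole numbers in 1 table. The submitters' processing notes name STAR, HTSeq, limma and build hg19, without roles or settings. Which annotation and strand setting were used, and how mouse reads were treated, is not stated there, so reads of overlapping antisense genes may be mixed.

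Of 57798 lines, 25 with a repeated identifier were removed. Listed genes were matched by the table's own symbols. The counts were tested with edgeR 4.0.16 (R 4.3.3, limma 3.58.1) with TMM factors and filterByExpr, which left 21308 genes holding 99.84% or more of the counts of every tumour, by the quasi-likelihood F test of on dox minus off dox. Intervals are 95%. Single values were also tested by exact two-sided permutation over the 15 splits of the tumours, on the absolute difference of means, for genes on log2 CPM with a prior count of 1 (Python 3.11.15). Counts of tumours of the same group differed beyond sampling noise, so none was taken as a duplicate. Scripts were checked on simulated data, where edgeR recovered 32.8% of 1.5-fold, 67.2% of 2-fold and 97% of 4-fold changes. Of the 143 calls in that simulation, 12 were false. Exon lengths and transcript sequences came from GENCODE v29, a build other than that of the files, so no genome coordinates are given.

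The genes named are the members, ME3, the called genes and the 12 of smallest p of the wider list, the pseudogene with the most counts and the 5 genes most like the member of smallest p. ME2, TF, HAMP, FTMT, HEPH and the cell type markers were named after their values were seen. The members and lists were chosen with earlier results of these data known. Alternatives tried were DESeq2's size factors and upper-quartile scaling, no low-count filter and a stricter one, robust fitting, limma voom, DESeq2 1.42.0, an adjusted p threshold of 0.1, a block for replicate number and fits without each tumour. For the ratios they were 0.5 added to each count and pseudogene counts added.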

Additional observations from a re-analysis of the deposited data

How the results depend on the processing

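No iron gene of the 9 was called under any of the 15 alternatives. The alternative at a threshold of 0.1 reuses the main fit, so its values could not change direction. Of the 135 values that the alternatives gave, 132 kept their direction and their side of the threshold. The 3 that turned were TFRC (-0.087) and FTL (0.106) without on-dox tumour 1 and SLC40A1 (0.007) without on-dox tumour 2, where the spread of the lone on-dox tumour is taken from the off-dox tumours. With 1 tumour left out TFRC ranged from -0.087 to 0.45, FTL from -0.199 to 0.106 and SLC40A1 from -0.412 to 0.007. Over all genes the count of calls, 225, was 770 with no low-count filter, 724 with DESeq2, 53 with the replicate block and 533 at a threshold of 0.1, and 72 to 562 with 1 tumour left out. In the wider list the count was 2, beside 1.06% of all genes. It was 1 with DESeq2's size factors in the edgeR fit (1.01% of all genes) and 4 with no low-count filter (1.96%). It was 4 with DESeq2 (3.4%), 0 with the replicate block (0.249%) and 4 at a threshold of 0.1 (2.5%). With 1 off-dox tumour left out it was 1 each time (0.381% to 0.634%). The count thus largely moved with the share of all genes called, and the cause was not tested. With the replicate block the log2 fold change of SLC48A1 was 0.842 (adjusted p = 0.158) and that of FBXL5 was -0.469 (adjusted p = 0.563). The labels do not say that replicate numbers pair tumours, and with 2 on-dox tumours, whose deviations from their mean mirror each other, the correlations with off-dox tumours 1 and 2 (-0.255 and -0.181) cannot show whether they do. The block gave an adjusted p of 0.257 for STEAP3 and 0.529 for HMOX1. The difference in the log2 ratio of FTH1 to FTL, -0.337, ran from -0.683 to 0.01 with 1 tumour left out, and that of TFRC to FTH1, 0.571, from 0.433 to 0.787. LCN2 rests on the fewest counts of the 9 genes, 17 to 105 a tumour, and had the widest interval.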
